A study of Homo sapiens with 95 samples.

Results

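The HcRed control cells of this study were exposed to the tobacco nitrosamine NNK, and their transcriptomes were compared with those of HcRed cells given only the solvent DMSO. HcRed cells carry, in AALE, a bronchial epithelial line of human origin that was immortalized, an empty overexpression vector with the fluorescent reporter HcRed and serve as the control of the overexpressed genes NRF2, FGFR1, NRG1 and PIK3CA. All cells were grown to confluency in multi-well plates before the compound was added, at 490 μM for NNK, and the length of the exposure is not given in the sources used here. The 3 NNK samples and the 3 DMSO samples are 6 of the 95 samples of the series. The series crosses 8 cell lines with 4 exposures. The other lines are the GFP control, the knockouts of CDKN2A and FAT1 and the lines that overexpress NRF2, FGFR1, NRG1 or PIK3CA. The other exposures are cigarette smoke condensate (CSC) and benzo(a)pyrene (BaP). Below, NNK and DMSO samples of the other lines, and HcRed samples with CSC or BaP, serve for comparison. The series was profiled by sparse full length (SFL) RNA-seq, a pooled method in which each library carries its own barcodes. Of 27978 genes listed in each sample, the 13735 with a mean count above 1 over the 6 samples were compared. The genes nearest this limit were 305 with 6 reads in all, which were left out, and 254 with 7 reads, which were kept. A further set of 9911 genes had no read in any of the 6 samples.

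The libraries were shallow. The NNK samples held 708043, 730095 and 432015 counted reads and the DMSO samples 1173281, 694898 and 1032133, within a range of 287446 to 2116383 over the whole series. All 20 markers of basal airway epithelium that were looked for passed the limit on counts, and their summed level lay between 18870 and 20540 CPM (reads scaled to a common library size) with NNK and between 17820 and 18110 CPM with DMSO. Of the markers of other cell types, 1 of 13 for differentiated airway cells, 1 of 9 for fibroblasts, 2 of 10 for immune cells and 0 of 6 for endothelium passed it, and none of those 4 genes passed the test. In bulk samples such as these, fewer cells of a kind and less RNA per cell cannot be told apart.

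NNK is formed from nicotine when tobacco is cured and burned. It becomes reactive once cytochromes P450 hydroxylate it, while carbonyl reductases turn it into the alcohol NNAL, and its reactive products alkylate DNA. It is also a ligand of nicotinic and beta-adrenergic receptors, through which it can activate kinase cascades. Among the programmes an airway epithelial cell can switch on after exposure to tobacco chemicals are the aryl hydrocarbon receptor (AhR) response, in which the receptor binds its partner ARNT and drives CYP1A1, the oxidative stress response of NRF2, the p53 response to DNA damage, and the rapid transcription of early response genes such as FOS and EGR1 behind growth factor receptors. Sterol synthesis genes are controlled together by the factor SREBF2, which is released from the endoplasmic reticulum when sterols run low.

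A few genes of the AhR, early response, cholesterol synthesis and mitosis groups are shown first by the 250 bases before their start site (RefSeq, GRCh38.p14, read by gene symbol, 5′ to 3′ on the strand of the gene), because these windows hold elements known for such groups, although not all members of a group hold them. MSMO1 is shown for its sterol element and not for the size of its change. Capitals mark GCGTG, the core of the AhR response element, in CYP1A1, the CArG box of serum response factor in EGR1, TGACGT, the core of the cAMP response element, in FOS and DUSP1, TCACNCCA, a sterol response element, in MSMO1, and CCAAT, the element of the factor NF-Y, in MVD and TOP2A, each on either strand. An ATTGG in capitals is a CCAAT on the other strand.
CYP1A1, chr15:74725529-74725778, minus strand: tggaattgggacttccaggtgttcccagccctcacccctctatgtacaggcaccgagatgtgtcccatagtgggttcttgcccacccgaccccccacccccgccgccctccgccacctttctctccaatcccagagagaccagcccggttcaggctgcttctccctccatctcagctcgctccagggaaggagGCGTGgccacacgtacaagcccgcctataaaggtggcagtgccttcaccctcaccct
EGR1, chr5:138465229-138465478, plus strand: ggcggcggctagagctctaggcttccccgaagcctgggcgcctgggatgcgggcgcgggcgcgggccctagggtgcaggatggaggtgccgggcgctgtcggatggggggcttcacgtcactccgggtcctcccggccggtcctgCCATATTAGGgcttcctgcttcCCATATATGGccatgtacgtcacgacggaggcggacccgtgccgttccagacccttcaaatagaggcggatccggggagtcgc
FOS, chr14:75278578-75278827, plus strand: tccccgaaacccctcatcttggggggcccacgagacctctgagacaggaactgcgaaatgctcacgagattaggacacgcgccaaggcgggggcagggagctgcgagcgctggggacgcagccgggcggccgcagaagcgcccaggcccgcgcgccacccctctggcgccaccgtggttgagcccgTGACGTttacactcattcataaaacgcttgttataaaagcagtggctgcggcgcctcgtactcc
DUSP1, chr5:172771196-172771445, minus strand: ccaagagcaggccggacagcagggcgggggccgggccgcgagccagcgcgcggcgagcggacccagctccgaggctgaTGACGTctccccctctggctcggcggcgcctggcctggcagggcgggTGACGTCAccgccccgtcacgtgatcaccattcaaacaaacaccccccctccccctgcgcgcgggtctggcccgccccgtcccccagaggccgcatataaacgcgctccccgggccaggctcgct
MSMO1, chr4:165327419-165327668, plus strand: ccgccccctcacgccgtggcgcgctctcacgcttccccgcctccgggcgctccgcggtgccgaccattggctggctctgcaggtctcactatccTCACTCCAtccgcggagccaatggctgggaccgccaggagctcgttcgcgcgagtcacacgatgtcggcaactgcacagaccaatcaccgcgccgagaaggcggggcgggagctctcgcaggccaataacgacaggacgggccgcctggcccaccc
MVD, chr16:88663092-88663341, minus strand: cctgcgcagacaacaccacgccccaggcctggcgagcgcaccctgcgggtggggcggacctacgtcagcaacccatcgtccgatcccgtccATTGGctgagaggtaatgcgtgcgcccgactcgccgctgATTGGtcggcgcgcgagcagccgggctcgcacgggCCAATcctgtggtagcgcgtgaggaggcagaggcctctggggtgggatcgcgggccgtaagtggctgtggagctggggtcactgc
TOP2A, chr17:40417897-40418146, minus strand: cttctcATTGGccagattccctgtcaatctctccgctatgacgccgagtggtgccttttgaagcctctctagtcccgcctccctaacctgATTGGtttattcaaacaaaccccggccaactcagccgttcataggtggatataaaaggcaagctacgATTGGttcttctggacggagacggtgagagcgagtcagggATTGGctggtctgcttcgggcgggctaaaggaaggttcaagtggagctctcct
In CYP1A1 the element began 57 bases before the start, EGR1 held 2 CArG boxes, and DUSP1 held TGACGT at 3 places, of which 2 overlap as the palindrome of opposite strands. TOP2A held 4 CCAAT elements and MVD 3.

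The same letters were counted in windows that run from 250 bases before to 50 bases after the start, over genes with at least 1 window in the table. GCGTG was held by 6 of 8 tested AhR targets, 57.9% of 10289 tested genes and 40.6% of all 27305 genes. TGACGT was held by 6 of 18 early response genes against 13.9% of tested and 9.64% of all genes, and the CArG box by 1 of 18 against 1.5% and 1.6%. CCAAT was held by 16 of 18 cholesterol synthesis genes and by 25 of 29 mitosis genes, against 43.1% of tested and 39.7% of all genes. TTTGAA, an element of genes of late cell cycle phases, was held by 20 of 29 mitosis genes against 13.7% of tested and 18.2% of all genes. TCACNCCA was held by 3 of 18 cholesterol synthesis and 1 of 11 fatty acid synthesis genes against 4.65% of tested and 4.8% of all genes. Matches of different motifs were counted without regard to overlap, and they describe these windows only.

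Exposure to NNK went with a broad shift of the transcriptome of HcRed cells. With limma-voom and a Benjamini-Hochberg adjusted p under 0.05, 1305 genes were higher (9.50% of those tested) and 949 were lower (6.91%) than with DMSO, while DESeq2 called 705 in all. The 1305 genes that were higher were rich in G and C, with a median GC content of 59.4%, and the 949 that were lower were poor in them, with a median of 39.1%, against 47.6% over tested genes. Over 10 equal bins of genes ordered by GC content, the median log2 difference ran from -0.37 in the lowest to 0.64 in the highest bin, and the share of genes called higher ran from 0.217% to 54.4%. The 20% of genes of highest GC content took 14.9% ± 0.301 of counts with NNK and 9.96% ± 0.705 with DMSO (SD, n = 3 each, two-sided exact permutation p = 0.1, the smallest that 3 against 3 samples can give). Every NNK sample lay above every DMSO sample in this share. The same share lay between 12% and 15.8% in the NNK samples of the 7 other lines and between 8.4% and 11.5% in their DMSO samples, so that it moved with exposure in all lines. All libraries were sequenced in 1 pool, but the sources used here do not say whether exposed and DMSO samples were prepared together. Exposure and a batch of preparation thus cannot be told apart, either as counted or after the correction below.

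Because of the shift in GC content, most groups compared with DMSO below are given a second time after a correction for GC content and transcript length. Most group counts against CSC and BaP are given as counted only. The correction removes from each sample the trend of counts with GC content and length, fitted over 12931 genes with a known GC content. Any other effect of a batch stays in place, and a response to NNK that follows GC content would be removed. After it 111 genes were higher (0.858%) and 72 lower (0.557%), with median GC contents of 46.5% and 45.7%. Of these, 93 of 111 and 52 of 72 were also called without the correction.

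**Figure D1:**
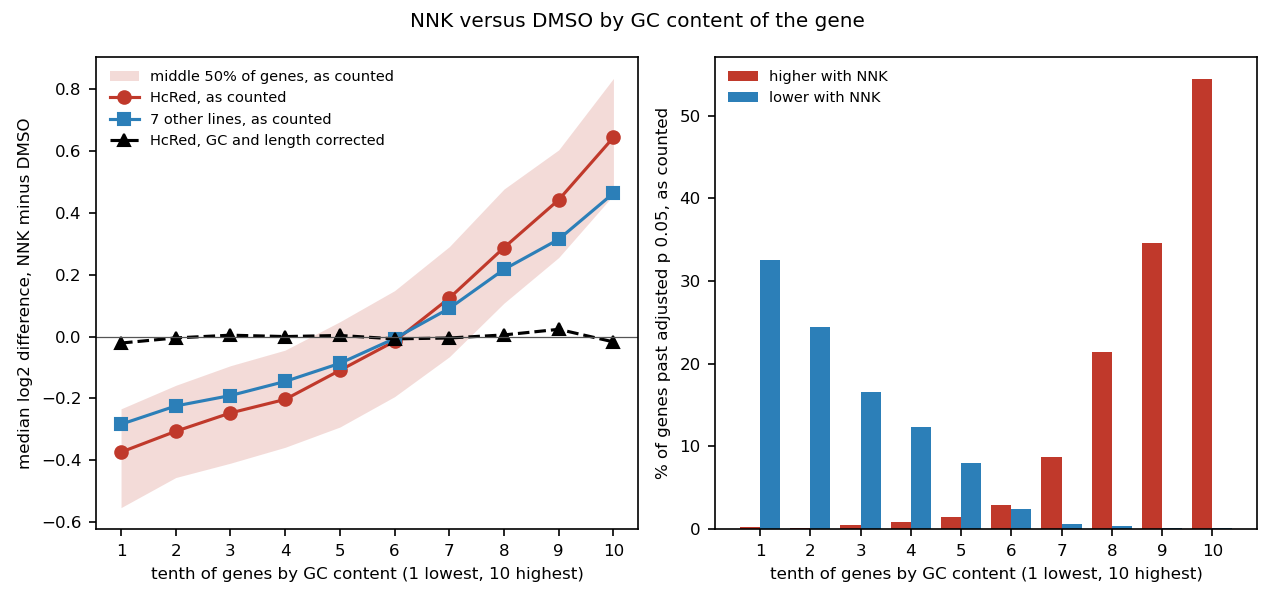
The left panel plots the median log2 difference between NNK and DMSO against 10 bins of genes by GC content for HcRed cells (with the range of the middle 50% of genes), for the 7 other lines and for HcRed cells after correction, and the right panel plots the percent of genes called in each direction in HcRed cells. The uncorrected median climbs from -0.37 to 0.64, the other lines follow the same course from -0.28 to 0.46, and the corrected medians stay between -0.02 and 0.02.

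AhR target genes rose with NNK, and CYP1A1 had the largest log2 rise of the genes chosen by size of change. CYP1A1 encodes the cytochrome P450 that oxidizes polycyclic aromatic hydrocarbons and is the classic reporter of AhR activity. In all, 6 of 11 tested AhR-related genes rose and 0 fell, with a median log2 difference of 0.57 against -0.01 over all tested genes, and after the GC correction 6 of 10 rose and 0 fell, with a median of 0.68. The share of all tested genes called higher was 9.50% as counted and 0.858% after the correction. CYP1A1 (chr15:75011883-75017877, GRCh37) had 27, 24 and 20 reads with NNK and 2, 0 and 0 with DMSO. It thus passed the limit on counts through its NNK samples. The pooled reads gave a ratio of NNK to DMSO of 55.1, with an exact 95% interval for counting error of 14.7 to 463. For so few DMSO reads the fitted log2 difference depends on the small offset that limma-voom adds to each count. It was 5.38 (SE 0.78, limma adjusted p = 6.72e-08), and 5.18 (limma adjusted p = 7.56e-07) after the correction.

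CYP1B1, the second P450 of this family, rose from 109, 102 and 112 CPM with DMSO to 289, 271 and 344 CPM with NNK. Its log2 difference was 1.44 (SE 0.12, limma adjusted p = 1.02e-17), and 1.58 (limma adjusted p = 4.53e-19) after the correction, and the groups did not overlap. An antisense gene, CYP1B1-AS1, shares 11.2% of its exon bases, and the sources used here do not say whether reads were counted by strand. TIPARP, an ADP-ribosyltransferase that restrains AhR, had 153, 187 and 163 CPM with NNK and 121, 98 and 116 with DMSO. Its log2 difference was 0.57 (SE 0.13, limma adjusted p = 0.00105). ALDH3A1, an aldehyde dehydrogenase, rose by 1.56 (SE 0.33, limma adjusted p = 0.000231) on the log2 scale, from 17.1, 10.1 and 7.81 to 29.7, 37.4 and 39 CPM, and 1.13 (limma adjusted p = 0.0496) after the correction, at the edge of the threshold. NQO1, a quinone reductase that both AhR and NRF2 drive, rose by 0.40 (SE 0.13, limma adjusted p = 0.0244) but was not called without DMSO replicate 1 or NNK replicate 3, and SLC7A5, an amino acid transporter, by 0.83 (SE 0.04, limma adjusted p = 2.49e-30) on that scale. The receptor itself and its partner did not pass the test, with 0.10 for AHR (limma adjusted p = 0.615) and -0.04 for ARNT (limma adjusted p = 0.9). AHRR, the AhR repressor, was too thinly covered to judge, with 1.41, 6.92 and 4.58 CPM with NNK and 5.13, 1.44 and 0 with DMSO.

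**Figure D2:**
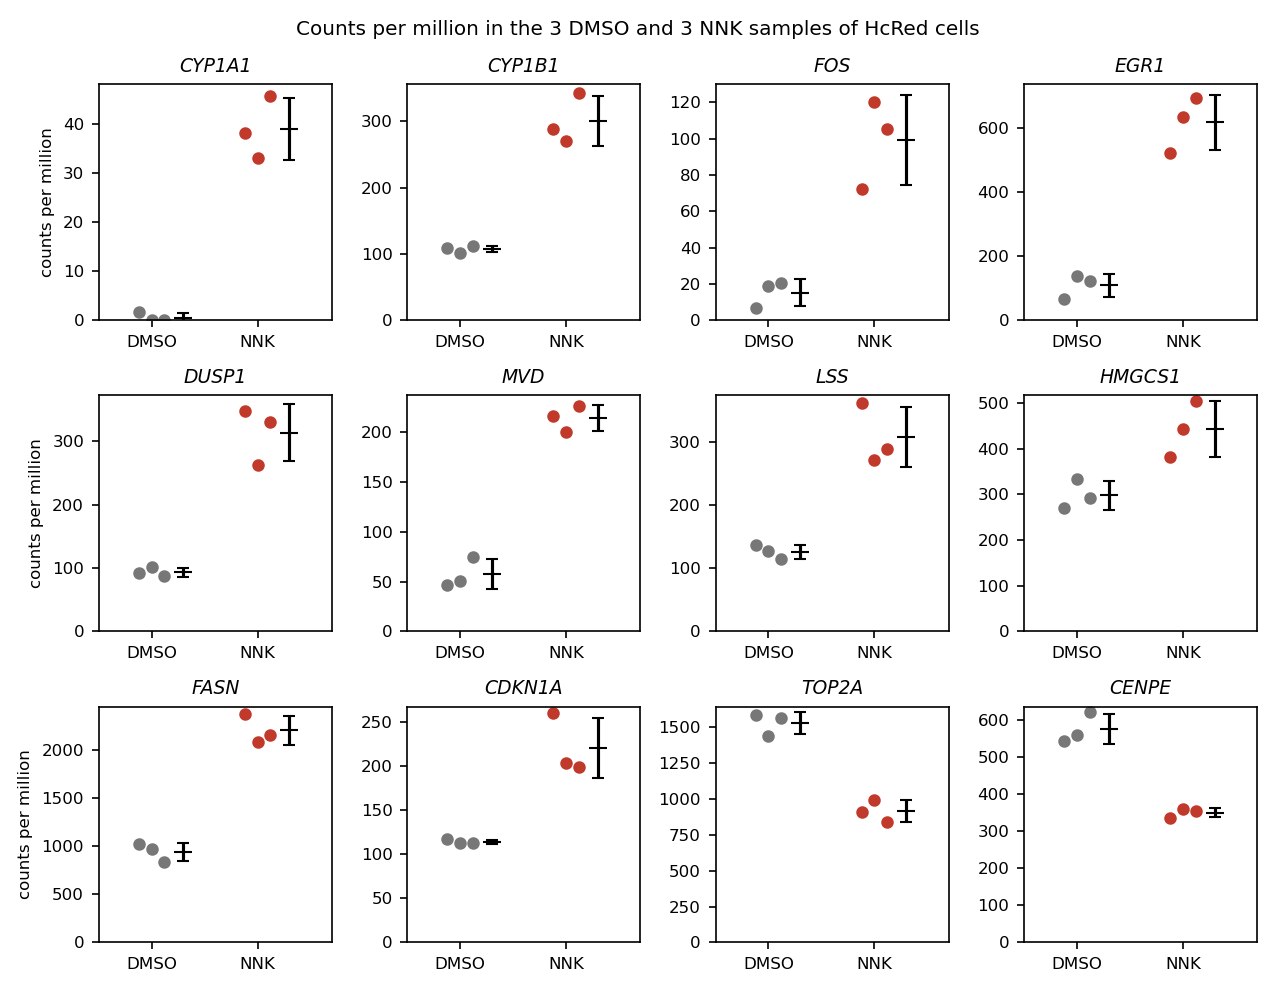
Each panel plots the CPM of a gene in the 3 DMSO and the 3 NNK samples of HcRed cells as points, with the mean and SD as a bar beside them. In all 12 genes the NNK samples stand apart from the DMSO samples, above them in 10 genes and below them in TOP2A and CENPE.

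Early response genes rose as a group, with the highest median of all lists as counted. These genes encode the AP-1 factors FOS and JUN, other factors that growth factor signalling switches on within minutes, and the phosphatases that end the signal. Of 23 tested members, 15 rose and 0 fell, with a median log2 difference of 1.03, and 9 rose and 0 fell after the GC correction, with a median of 0.79. By comparison, 9.50% of all tested genes were higher as counted and 0.858% after the correction. FOS (chr14:75745529-75748933, GRCh37) had 72.1, 120.4 and 105 CPM with NNK and 6.84, 18.7 and 20.5 with DMSO, a log2 difference of 2.85 (SE 0.28, limma adjusted p = 8.91e-14) and of 2.68 after the correction. EGR1 (chr5:137801168-137804992, GRCh37), a zinc finger factor, had 522, 634 and 692 CPM with NNK and 67.5, 137 and 123 with DMSO, a log2 difference of 2.59 (SE 0.13, limma adjusted p = 2.15e-33) and of 2.28 after the correction. In both genes the lowest NNK sample lay several times above the highest DMSO sample.

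DUSP1, the phosphatase that inactivates MAP kinases, had 348, 263 and 330.0 CPM with NNK and 91.5, 101 and 86.9 with DMSO, a log2 difference of 1.74 (SE 0.13, limma adjusted p = 2.79e-21). DUSP5 and DUSP4 of the same family rose by 1.53 and 1.01 on that scale, and by 1.22 and 0.83 after the correction. MYC, a transcription factor of cell growth, rose, from 92.3, 90.8 and 95.7 to 208, 177 and 243 CPM with a log2 difference of 1.13 (SE 0.13, limma adjusted p = 8.91e-11), which the correction left at 1.11. KLF6, PHLDA1 and FOSL2 rose by 0.91, 0.86 and 0.76 and were also called after it. Some members lost their call with the correction, among them JUND, from 1.31 to 0.42, and JUNB, from 1.10 to 0.42.

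Of 6 tested ligands of the EGF receptor, 2 rose and 0 fell, both with and without the correction. The share of all tested genes that rose was 9.50% as counted and 0.858% after the correction. AREG, amphiregulin, had 18.4, 6.92 and 16 CPM with NNK and 2.56, 1.44 and 3.91 with DMSO, a log2 difference of 2.05 (SE 0.59, limma adjusted p = 0.00911) on few reads. EREG, epiregulin, had 86.3, 74.7 and 66.5 CPM with NNK and 41.9, 44.7 and 44.9 with DMSO, a log2 difference of 0.81 (SE 0.19, limma adjusted p = 0.00109) and of 1.17 (limma adjusted p = 5.7e-06) after the correction. The groups did not overlap in either gene, and AREG was not called without DMSO replicate 1 or NNK replicate 1. HBEGF stood at -0.52 and TGFA at 0.19, neither past the threshold. When libraries were thinned to the smallest, 0 of the 6 were called.

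Genes of cholesterol synthesis rose together, where 9.50% of all tested genes were higher as counted and 0.858% after the correction. Of 24 tested members, 16 rose and 0 fell, with a median log2 difference of 0.53 against -0.01 over all genes, and 13 rose and 0 fell after the GC correction, with a median of 0.45. Their summed level lay between 6433 and 6676 CPM with NNK and between 4584 and 4742 CPM with DMSO. The group spans genes rich and poor in GC, and both kinds rose. MVD (chr16:88718343-88729569, GRCh37), mevalonate diphosphate decarboxylase, had 216, 201 and 227 CPM with NNK and 47, 50.5 and 75.2 with DMSO, a log2 difference of 1.91 (SE 0.15, limma adjusted p = 1.25e-18) and of 1.25 after the correction. LSS (chr21:47608055-47648738, GRCh37), lanosterol synthase, had 361, 271 and 289 CPM with NNK and 137, 127 and 114 with DMSO, a log2 difference of 1.28 (SE 0.12, limma adjusted p = 1.7e-15) and of 0.85 after the correction.

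HMGCS1, the synthase at the entry of the mevalonate pathway and a gene of low GC content (39%), had 382, 443 and 504 CPM with NNK and 271, 333 and 291 with DMSO, a log2 difference of 0.56 (SE 0.09, limma adjusted p = 1.8e-06) that was 0.84 after the correction. In this gene and in MSMO1 and CYP51A1, enzymes that remove methyl groups from lanosterol, the corrected value was the larger, at 0.69 against 0.32 and 0.60 against 0.34. As counted, neither MSMO1 nor CYP51A1 was called without DMSO replicate 1, nor MSMO1 without NNK replicate 3. DHCR7, which closes the pathway, rose by 1.08 and was also called after the correction. SREBF2, the master factor, stood at 0.58 before it and at 0.17 (limma adjusted p = 0.543) after it.

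Fatty acid synthesis genes rose in part. Of 12 tested, 6 rose and 0 fell, and after the correction 5 rose and 1 fell. Among all tested genes, 9.50% were higher and 6.91% lower as counted, and 0.858% and 0.557% after the correction. FASN (chr17:80036214-80056170, GRCh37), fatty acid synthase, had 2377, 2086 and 2161 CPM with NNK and 1022, 967 and 834 with DMSO, a log2 difference of 1.24 (SE 0.05, limma adjusted p = 1.25e-37) that was 0.45 after the correction. ACLY, which supplies cytosolic acetyl-CoA, FADS2, a desaturase, and ACSS2, an acetyl-CoA synthetase, rose by 0.74, 1.05 and 0.82, and by 0.55, 0.59 and 0.59 after it. SREBF1, the factor that governs this pathway, went from 0.15, not past the threshold, to -0.53 (limma adjusted p = 0.00828) after it. The gene is rich in GC, at 63.2%.

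**Figure D3:**
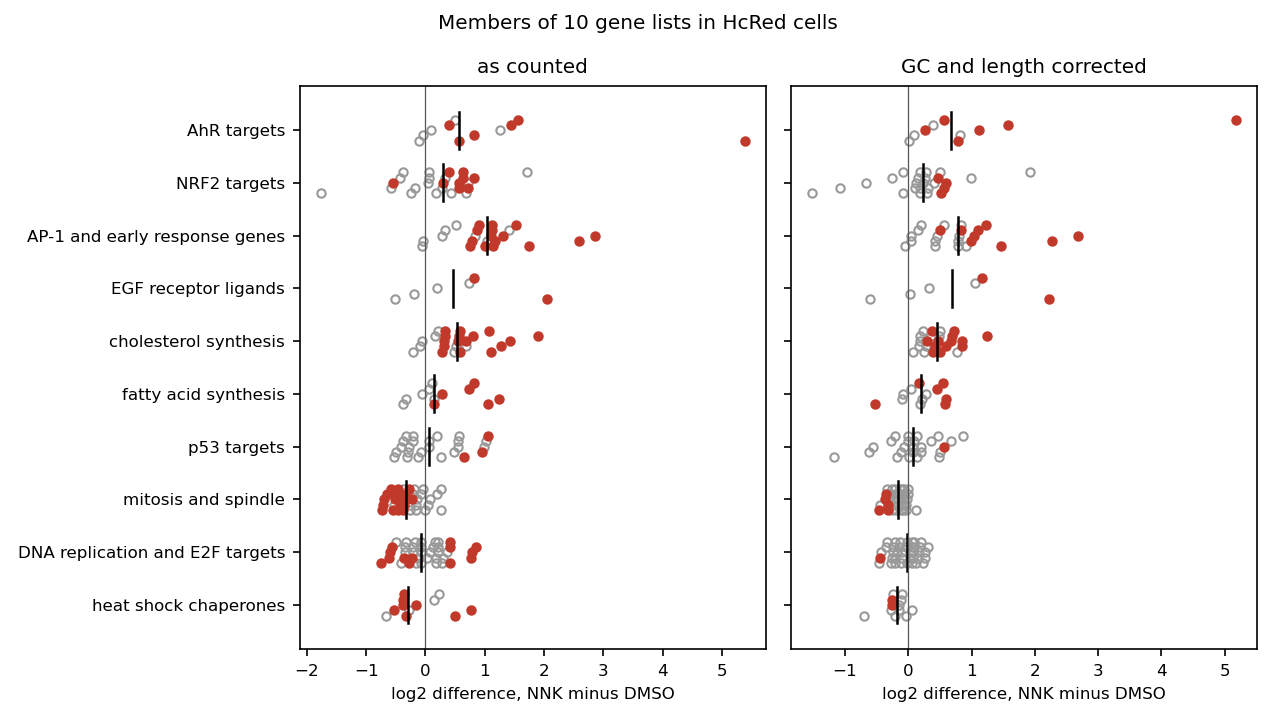
Each point is a gene of 10 lists at its log2 difference between NNK and DMSO in HcRed cells, as counted on the left and after GC and length correction on the right, with filled points past an adjusted p of 0.05 and a bar at the median of the list. Early response, cholesterol synthesis and AhR genes lie mostly to the right in both panels, and mitosis genes lie to the left with 18 called as counted and 5 after correction.

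The oxidative stress and p53 groups moved less. Over all tested genes 9.50% were higher and 6.91% lower as counted, and 0.858% and 0.557% after the correction. Of 25 NRF2 targets, 8 rose and 1 fell, and 4 rose and 0 fell after the correction. FTL, the ferritin light chain, had 346, 329 and 275 CPM with NNK and 197, 166 and 179.6 with DMSO, a log2 difference of 0.81 (SE 0.11, limma adjusted p = 3.39e-09) and of 0.52 after the correction, and PGD, of the pentose phosphate pathway, had 0.56 (SE 0.11, limma adjusted p = 0.000128). The member that fell, UGDH, had overlapping groups and was called in only 2 of 6 fits that each left out a library, those without DMSO replicate 1 or NNK replicate 3. Of 25 p53 targets 3 rose, near the share of all genes, and 0 fell, and 1 rose after the correction. That gene was CDKN1A, the p21 inhibitor of cyclin-dependent kinases, with 260.2, 203 and 199 CPM with NNK and 117, 112 and 112 with DMSO, a log2 difference of 0.96 (SE 0.13, limma adjusted p = 3.7e-09) and of 0.57 after it. Of 28 base excision and alkyl adduct repair genes 2 rose and 1 fell, of 28 nucleotide excision repair genes 2 rose and 2 fell, and 0 of either list were called after the correction. Both repair lists thus lay near or under the shares of all genes. Of 29 genes of the ATF4 amino acid response 6 rose and 3 fell, and of the 22 with a corrected value, of which 6 rose and 0 fell as counted, 3 rose after the correction, DDIT4, SLC3A2 and SLC7A5, the first of which had a log2 difference of 0.74.

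Genes of mitosis fell with NNK. Of 36 tested, 0 rose and 18 fell, with a median log2 difference of -0.33, and 5 fell after the correction, with a median of -0.16. Their median GC content was 42.7%. Among all tested genes, 6.91% were lower as counted and 0.557% after the correction. TOP2A (chr17:38544777-38574148, GRCh37), the topoisomerase that untangles replicated DNA, had 908, 994 and 841 CPM with NNK and 1582, 1441 and 1564 with DMSO, a log2 difference of -0.74 (SE 0.06, limma adjusted p = 7.91e-20) and of -0.46 after the correction. CENPE (chr4:104026506-104119602, GRCh37), a kinetochore motor, had 335, 359.8 and 353 CPM with NNK and 543, 559 and 621 with DMSO, a log2 difference of -0.72 (SE 0.08, limma adjusted p = 8.97e-11) and of -0.37 after it. CENPF, ASPM and MKI67 were the others called both ways, at -0.58, -0.64 and -0.28 as counted. In each of these genes all 3 NNK samples lay below all 3 DMSO samples. The 39 DNA replication genes went both ways, with 6 higher and 7 lower, and only RRM2, a subunit of ribonucleotide reductase, stayed called, at -0.56 and -0.45. Of 12 heat shock chaperones 2 rose and 6 fell, and after the correction 0 rose and 2 fell, HSP90AA1 at -0.26 and HSPA8 at -0.25.

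Among genes named by size of change alone, several with large rises are rich in GC and were not called after the correction. MAPK3, the kinase ERK1, went from 1.59 to 1.04, MAPK15 from 1.75 to 1.05, IRF7 from 1.76 to 0.98, KLHL22 from 1.54 to 1.07 and ANO9 from 1.53 to 0.81. PQLC2, a lysosomal transporter, rose by 1.97 and has no GC value under its symbol. The largest falls were in LINC01355, with 5.66, 2.77 and 0 CPM with NNK and 17.9, 25.9 and 31.2 with DMSO and a log2 difference of -2.90 (SE 0.64, limma adjusted p = 0.000561), in the zinc finger gene ZNF175, with 8.49, 1.38 and 9.17 CPM with NNK and 28.2, 15.9 and 25.4 with DMSO and -2.17 (SE 0.51, limma adjusted p = 0.00105), and in ZNF181 at -2.13. The correction left the first pair at -2.56 and -2.06, both called. Other falls chosen by size, SNORA4, IFIT1, CCDC171, PIGA, RNPC3, LINC01468, ZNF595 and ZNF724, lay between -1.77 and -1.34, and of these LINC01468 had no corrected value and the others were not called after it. Several calls as counted ended when a library was left out: without DMSO replicate 1 those of SNORA4, PIGA and ZNF595, without DMSO replicate 3 those of IFIT1 and KLHL22, without NNK replicate 1 those of SNORA4, IFIT1, PIGA, RNPC3, ZNF595 and ANO9, without NNK replicate 2 those of ZNF175, PIGA, ZNF595 and ZNF724, and without NNK replicate 3 those of SNORA4, PIGA and ZNF595. IFIT1 then ranged from -2.22 to -0.71. Of the 5 genes of lowest p that rose, PLEC, which encodes plectin, had 5463, 5288 and 5658 CPM with NNK and 2966, 3187 and 2677 with DMSO and lost its call after the correction, from 0.90 to 0.06. DEK and SMC4, chromatin genes among those of lowest p that fell, had -0.66 and -0.72, and -0.25 and -0.41 after it.

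A pair of abundant nuclear RNAs moved in opposite directions. NEAT1, the scaffold of paraspeckles, had 4424, 4638 and 4022 CPM with NNK and 2563, 2201 and 2546 with DMSO, a log2 difference of 0.84 (SE 0.04, limma adjusted p = 8.66e-38) that was 1.0 after the correction. MALAT1, of nuclear speckles, had 215, 206 and 218 CPM with NNK and 378, 333 and 385 with DMSO, a log2 difference of -0.79 (SE 0.10, limma adjusted p = 2.19e-09) and of -0.59 after it. An antisense gene, TALAM1, covers 77.8% of the exon bases of MALAT1, and reads of the pair cannot be told apart here.

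Among the genes that handle NNK itself, the activating cytochromes P450 were barely covered. Of 12 cytochromes P450 that can activate NNK, 2 passed the limit on counts, CYP2S1 and CYP3A5, and neither passed the test, at 0.92 and -0.77. No member had more than 8 reads in any of the 6 samples, so that only a large rise of an activating enzyme could have been seen at this depth. The carbonyl reductases held more reads, up to 68 for a member in a sample, though only 3 reached a mean count of 10. Of 9 tested carbonyl reductases 0 rose and 1 fell as counted, where 6.91% of all tested genes were lower. The gene that fell, CBR4 at -0.94 (SE 0.26, limma adjusted p = 0.00681), was not called after the correction. Reads of AKR1C1, AKR1C2 and AKR1C3 in that list can be split among close copies. Of 8 tested nicotinic and beta-adrenergic receptor genes none passed the test.

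Most genes called in HcRed cells were also called in the other cell lines, which are the GFP control, the knockouts of CDKN2A and FAT1 and the overexpression lines of FGFR1, NRF2, NRG1 and PIK3CA. Over 42 samples of these 7 lines, with line as a term of the fit, 3490 genes were higher (24.2%) and 3351 lower (23.2%) with NNK. Of 1300 genes higher in HcRed cells and tested in both, 1203 were also higher in the other lines, which is 92.5% of the first and 35.3% of the second list. Of 949 lower in HcRed cells, 884 were also lower there, or 93.2% and 26.5%. After the correction 99 of 111 and 68 of 72 were shared. These shares rest on separate samples, and the shift in GC content was common to both sets. In the other lines 7 AhR-related genes rose and 1 fell as counted, 21 early response genes rose and 0 fell, and 22 cholesterol synthesis genes rose and 1 fell. After the correction 8, 17 and 22 rose and 0 fell, where 6.61% of all genes were higher and 8.19% lower. Of the mitosis genes 1 rose and 29 fell there as counted, and 0 rose and 26 fell after it.

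CYP1A1 was higher with NNK in all 7 other lines, by 1.77 to 3.55 in mean log2 CPM, and HcRed cells stood at 3.99 on that scale. EGR1 ranged over 1.73 to 2.94, MVD over 1.08 to 1.51 and FASN over 0.62 to 1.38, with HcRed cells at 2.52, 1.89 and 1.23. TOP2A was lower in all of them, between -0.57 and -0.47, with HcRed cells at -0.75. The difference of response between HcRed and GFP cells, the control of the knockouts, was tested as an interaction over 12 samples. Of 13877 genes 1 passed (0.00721%), while 684 had an unadjusted p under 0.05. It was RPPH1, the RNA subunit of RNase P, which was chosen after its values were seen. It falls outside the naming rule because the responses of single NNK samples overlapped between the lines. RPPH1 rose in both lines, by 0.58 in HcRed cells, and the difference between the lines was -0.35 (SE 0.06, limma adjusted p = 0.000533). It was not called without replicate 1 of the HcRed NNK samples, by DESeq2 or with no filter on low counts.

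**Figure D4:**
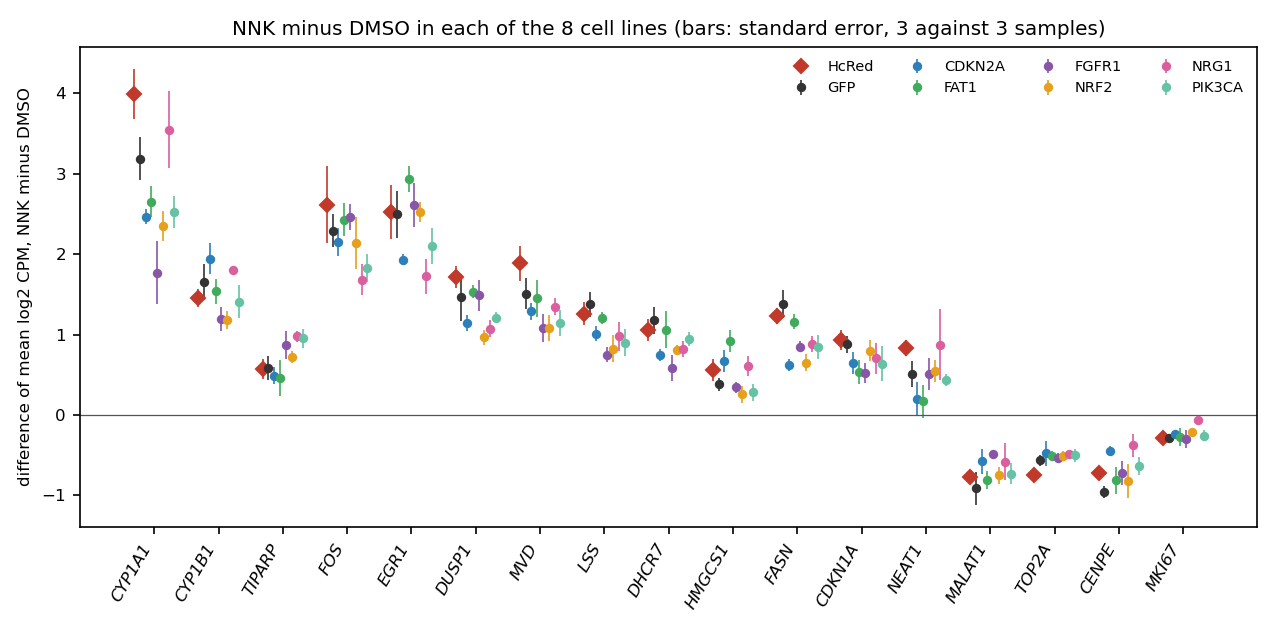
The difference of mean log2 CPM between NNK and DMSO is plotted for the genes of the groups above in each of the 8 cell lines, with standard errors from 3 against 3 samples and HcRed cells as diamonds. AhR, early response, sterol and fatty acid genes, CDKN1A and NEAT1 lie above 0 in every line, and MALAT1, TOP2A, CENPE and MKI67 lie below 0 in every line.

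NNK was then set beside the other exposures of HcRed cells, 24 μg/ml cigarette smoke condensate (CSC) and 173 μM benzo(a)pyrene (BaP), a polycyclic hydrocarbon that binds AhR. Doses differ in size and unit, so the values stand side by side as those of these doses only. More AhR and NRF2 genes were lower with NNK than higher, and more sterol genes were higher than lower. Against CSC, 126 genes were higher with NNK (0.894%) and 142 lower (1.01%), and against BaP 165 were higher (1.19%) and 77 lower (0.555%). In HcRed cells the 20% of genes of highest GC content took 14.6% to 15.2% of counts with NNK and 14.0% to 15.5% with CSC. The BaP samples had 11.6% to 14.2%, so that every NNK sample lay above every BaP sample. Each exposure lay above DMSO in this share. After the correction, 122 genes were higher with NNK than with CSC (0.922%) and 42 higher than with BaP (0.322%).

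CYP1A1 had 38.1, 32.9 and 45.9 CPM with NNK, 442, 362 and 222 with CSC and 239, 262 and 326 with BaP, on a scale set over the 12 HcRed samples. The log2 difference was -3.12 (SE 0.22, limma adjusted p = 3.12e-24) from CSC and -2.76 (SE 0.20, limma adjusted p = 5.78e-24) from BaP. After the correction it was -3.10 and -2.85. CYP1B1 had 288, 269 and 344 with NNK, 956, 972 and 881 with CSC and 1015, 924 and 845 with BaP, so that NNK samples lay below all others that were exposed. As counted, 7 of 11 AhR-related genes were lower with NNK than with CSC and 5 lower than with BaP, where SLC7A5 was higher. SLC7A5 was not called against BaP after the correction (0.04, limma adjusted p = 0.838). Of 25 NRF2 targets 10 were lower than with CSC, 7 lower than with BaP and 0 higher than with either. The median log2 difference of the AhR group was -0.95 from CSC and -0.65 from BaP, and that of the NRF2 group -0.66 and -0.54, against values near 0 over all genes.

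Of 24 cholesterol synthesis genes, 15 were higher with NNK than with CSC, 11 higher than with BaP and 0 lower than with either, and after the GC correction the counts were 15 and 12, where 0.922% and 0.322% of all genes were higher with NNK. HMGCS1 had 381, 439 and 505 CPM with NNK, 184, 228 and 229 with CSC, 248, 304 and 259 with BaP and 272, 331 and 297 with DMSO. NNK samples were the highest and CSC samples lay below DMSO. Against the same DMSO samples, its log2 difference was 0.56 with NNK, -0.47 with CSC and -0.12 with BaP. MVD stood at 1.91 with NNK, 0.82 with CSC and 0.77 with BaP, and LSS at 1.28 with NNK, 0.34 with CSC and 0.28 with BaP. These differences share their control samples. FASN was 1.06 (SE 0.06, limma adjusted p = 3.84e-35) above BaP and 0.15 (SE 0.05, limma adjusted p = 0.103) above CSC, the second not past the threshold. After the correction FASN was 0.67 (limma adjusted p = 1.8e-19) above BaP and 0.06 (limma adjusted p = 0.675) above CSC. SREBF1 was -0.98 (SE 0.12, limma adjusted p = 4.49e-11) relative to CSC.

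As counted, 15 early response genes were higher with NNK, 19 with CSC and 12 with BaP than in the same DMSO samples. Over all genes the shares were 9.50%, 12.7% and 2.67%. FOS stood at 2.85 with NNK, 2.56 with CSC and 2.35 with BaP. The direct log2 difference of FOS was 0.29 (SE 0.16, limma adjusted p = 0.468) from CSC and 0.50 (SE 0.17, limma adjusted p = 0.118) from BaP. EGR1 was higher with NNK than with either, by 0.39 (SE 0.08, limma adjusted p = 0.000839) and 0.47 (SE 0.08, limma adjusted p = 3.7e-05). TOP2A stood at -0.74 with NNK, -0.70 with CSC and -0.40 with BaP.

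Outside these groups, ABCA1, a cholesterol exporter, had 9.87, 6.86 and 11.5 CPM with NNK, 101, 97.1 and 121 with CSC, 8.55, 2.69 and 6.31 with BaP and 27.4, 22.9 and 19.9 with DMSO, and its log2 difference of -3.43 (SE 0.36, limma adjusted p = 1.88e-13) was the largest fall against CSC. SNORA51, SERPINB2 and EID3 followed at -3.15, -2.65 and -2.27. RGS2, a regulator of G protein signalling, had 32.4, 35.7 and 27.5 CPM with NNK, 9.82, 9.08 and 18 with CSC, 14.2, 13.4 and 10.5 with BaP and 15.4, 14.3 and 11 with DMSO. NNK samples alone stood apart, by 1.52 (SE 0.31, limma adjusted p = 0.000465) from CSC and 1.29 (SE 0.31, limma adjusted p = 0.00857) from BaP. TECPR1, an autophagy gene, was likewise higher by 1.25 and 1.33, and SYNM, LYNX1 and MED18 exceeded CSC by 1.17, 1.15 and 1.15. Against BaP, WTIP was higher by 1.30, and SNORA3A, AHRR and SNORA23 were at -2.40, -2.04 and -1.63. After the correction WTIP (1.05, limma adjusted p = 0.107) and SNORA23 (-1.40, limma adjusted p = 0.0646) were not called against BaP, and SNORA3A had no corrected value. Some of these calls also rested on single libraries. Against CSC, LYNX1 was called in 1 of 6 fits that each left out a library, the one without NNK replicate 2, SYNM was not called without CSC replicate 2 or NNK replicate 1, SNORA51 without NNK replicate 1, and EID3 when any of the 3 NNK samples was left out. Against BaP, WTIP and SNORA23 were not called without BaP replicate 2 or NNK replicate 1 or 2, RGS2 without BaP replicate 2 or NNK replicate 2, AHRR when any of the 3 NNK samples was left out, and SNORA3A without NNK replicate 1.

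**Figure D5:**
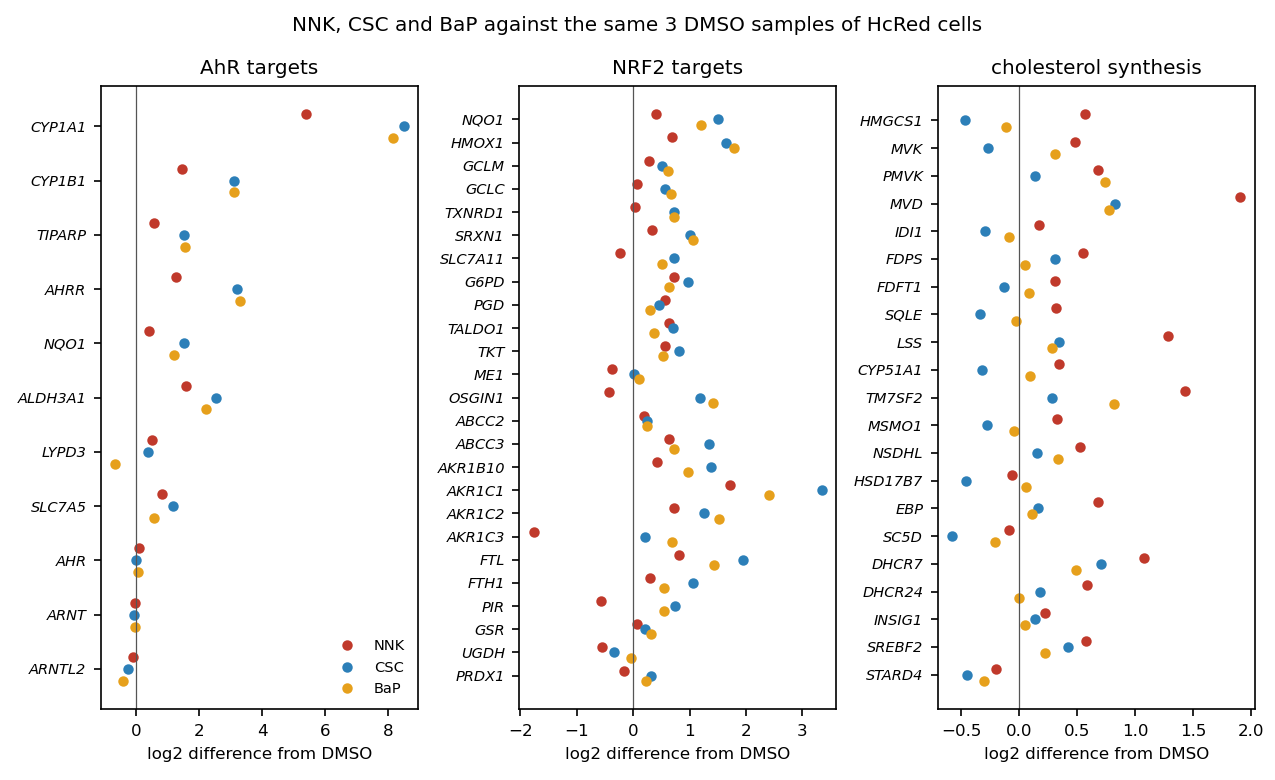
Log2 differences from the same 3 DMSO samples of HcRed cells are plotted for NNK, CSC and BaP, by gene, for members of the AhR, NRF2 and cholesterol synthesis lists. NNK points lie left of CSC and BaP for CYP1A1, CYP1B1 and TIPARP and right of them for HMGCS1, MVD, LSS and DHCR7.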

How the data were processed

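The authors deposited raw counts of reads per RefSeq gene of hg19 for each SFL library of total RNA, without normalization. Per the labels and the methods, reads were trimmed with cutadapt 1.12, checked with FastQC 0.11.5, aligned with STAR 2.5.2b and counted with featureCounts. The strand setting is not given in the sources used here.

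Here, genes with a mean count above 1 were fitted with limma-voom (limma 3.58.1, edgeR 4.0.16, R 4.3.3) on TMM-scaled library sizes, 3 NNK against 3 DMSO samples, with Benjamini-Hochberg adjustment over all genes and a threshold of 0.05. CPM are counts scaled to a common TMM-adjusted library size, set over the 6 samples of NNK and DMSO or the 12 of all exposures, and log2 CPM use a prior count of 2. The other lines were fitted with line as a term. The correction subtracted a loess trend (span 0.3) on GC content and transcript length, taken from GENCODE on GRCh37, where 86.9% of symbols matched. Alternatives were edgeR, DESeq2 1.42.0, other filters, the replicate block, leaving out libraries and, added after seeing the data, thinning to the smallest library. Scripts were tested on simulated data.

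The members and gene lists were chosen with earlier results of these data known. Genes were named as the 12 largest changes each way (5 between exposures) whose adjusted p was under 0.05, whose count averaged 10 or more and whose groups did not overlap, the 5 of lowest p, CYP1A1, and list members, and some of these genes are not reported here. The study describes 3 biological replicates of each condition, and the labels do not say whether these were separate cultures. The limma p-values thus rest on the spread between these samples, with each gene's variance drawn towards a value shared by all tested genes. Intervals cover counting error only. Replicates of a group differed by more than sampling noise, with a chi-square of 1.23 to 1.42 per degree of freedom.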

Additional observations from a re-analysis of the deposited data

Results flagged for a closer look

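RPPH1, the RNA subunit of RNase P, was the only gene to pass the test of a difference in NNK response between HcRed and GFP cells. The responses of single NNK samples overlapped between these lines, and the call ended without replicate 1 of the HcRed NNK samples. The interaction was -0.35 on the log2 scale (SE 0.06, limma adjusted p = 0.000533). Its mean log2 CPM was higher with NNK in all 7 other lines, by 0.08 to 0.94, with GFP cells at the top of that range and HcRed cells at 0.62. In HcRed cells it had 3630.5, 3972 and 5184 CPM with NNK and 2663, 2802 and 2754 with DMSO.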

How the results depend on the processing

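For NNK against DMSO in HcRed cells, 2254 genes were called, and the count was 705 with DESeq2, 183 after the GC and length correction and 944 when libraries were thinned to the smallest. Leaving out a library gave 1342 to 2169, with 1342 without DMSO replicate 3 and 1474 without NNK replicate 1. For NNK against CSC, 268 calls became 95 with DESeq2 and 106 when thinned, with 166 to 304 without a library (166 without NNK replicate 1 and 172 without NNK replicate 2). For NNK against BaP, 242 became 61 with DESeq2, 72 after the correction and 78 when thinned, with 96 to 369 without a library: 96 and 369 without BaP replicates 2 and 3, and 114, 147 and 156 without NNK replicates 1, 2 and 3. In the 7 other lines, 6841 became 2004 after the correction and stayed between 6253 and 6576 without a line. The single call of the difference between HcRed and GFP cells became 2 with edgeR, 0 with DESeq2 (243 genes at an unadjusted p under 0.05), 0 with no filter (998 such genes) and 0 to 3 without a library, with 0 without HcRed NNK replicate 1, 2 without GFP DMSO replicates 2 or 3, HcRed DMSO replicate 1 or HcRed NNK replicate 3, and 3 without GFP DMSO replicate 1 or HcRed DMSO replicate 3. The correction gave RPPH1 no value and called 3 other genes. The fall of these counts when thinned comes from fewer reads, and for the rest the cause was not tested.

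With the replicate block, counts were 2257 for NNK against DMSO, 360 and 347 against CSC and BaP, 6772 in the other lines and 2 for the interaction. Same-numbered samples correlated at 0.0522, 0.0123 and 0.0217 in their deviations, not each best with its own number, so the numbers were not taken to pair samples.

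Leaving out each library left 5 to 6 AhR, 14 to 16 early response and 13 to 17 cholesterol synthesis genes higher and 13 to 18 mitosis genes lower, while DESeq2 left 5, 12, 12 and 11 and thinning 6, 13, 14 and 11. After the correction the sign turned for SREBF1 (-0.53), KRT5 (-0.15), HSPB1 (-0.15), SFN (-0.16), ITGB4 (-0.11), GAPDH (-0.0053) and ARNT (0.0187). ARNT lay between -0.28 and 0.10 without a library, and HBEGF was 0.22 when thinned.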

Other observations

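The counts below stand beside 9.50% of all tested genes higher and 6.91% lower as counted, and 0.858% and 0.557% after the correction. Of 26 matrix and wound genes 10 rose and 2 fell, and of the 24 with a corrected value, of which 8 rose and 2 fell as counted, 4 rose and 1 fell after the correction. Collagen VII, COL7A1, had 1041, 984 and 985 CPM with NNK and 482, 541 and 421 with DMSO and log2 differences of 1.09 as counted and 0.33 after the correction. TGFBI stood at 0.58 and 0.46, and THBS1, thrombospondin, at 0.46 and 0.52. CYR61, a target of YAP, had a log2 difference of 0.87 (SE 0.16, limma adjusted p = 3.46e-05) and no corrected value. The IL-1 family and chemokine list had a median log2 difference of 0.70 over 11 tested genes as counted and of 0.92 after the correction, the highest of the lists after it, with 1 gene called each time. As counted this was CCL20, at 2.23 on few reads, which lay between 1.16 and 2.70 and was not called without DMSO replicate 1 or 3 or NNK replicate 1 or 3. IL1A was not past the threshold as counted, with 32.5, 45.7 and 32.1 CPM with NNK and 24.8, 20.2 and 22.5 with DMSO and 0.70 (SE 0.26, limma adjusted p = 0.0558), and was called after the correction at 1.05 (limma adjusted p = 0.0115). Of 20 basal markers 7 rose and 3 fell as counted, and 1 rose and 2 fell after the correction. KRT5, a keratin of basal cells, stood at 0.19 as counted and -0.15 (limma adjusted p = 0.000269) after the correction.

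Glycolysis and hypoxia genes had 10 of 24 higher and 1 lower, respiratory chain subunits 4 of 79 higher and 7 lower, and the interferon group 2 of 23 higher and 2 lower. Over all tested genes the shares were 9.50% higher and 6.91% lower. After the correction 0 were called in these 3 lists, over the 24, 76 and 22 genes with a corrected value. Replication-dependent histones had 12 of 70 higher and 1 lower as counted, and only 2 of the 70 had a corrected value, neither of them called either way. Histone genes are close copies whose reads could be split in counting. Of 79 ribosomal protein genes 11 rose and 12 fell, and 1 and 5 after the correction. Of 20 unfolded protein response genes 1 rose and 4 fell, and 0 were called after it. Of 16 cornified envelope genes 1 fell, of 7 metallothionein genes 1 rose, and of 15 nuclear and structured noncoding RNAs 4 rose and 1 fell. After the correction 0 cornified envelope and 0 metallothionein genes were called. Of the 12 noncoding RNAs with a corrected value, 3 rose and 1 fell as counted, and 1 rose and 2 fell after it. A single glucuronosyltransferase, UGT1A6, was tested, at 0.11, not past the threshold. Mitochondrially encoded genes are not analysed here.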
